A study of Mus musculus with 12 samples.

Results

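Neat1, Malat1, Gas5, Snhg1 and Snhg12 are 5 long noncoding RNAs, 5 of the 56287 entries in a table of gene counts from L929 cells. They were picked by symbol, after earlier results of these same libraries had been seen, so their levels and differences are given here as a description and carry no test. The choice covered all 12 libraries, and no library was kept aside. All 5 passed the filter on low counts, which 14694 entries passed. Neat1 and Malat1 act in the nucleus, and Gas5, Snhg1 and Snhg12 are hosts of small nucleolar RNAs (snoRNAs).

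L929 is an established mouse fibroblast line, labelled as wild type. RNA of 12 samples was sequenced in 4 groups of 3 libraries, and all cells are of this line. The Mock group is the control. The HT-DNA group was transfected with HT-DNA by the lipid reagent Lipofectamine for 6 h, in 6-well plates. The HT-DNA+AOA group also had AOA at 0.5 mM, begun 1 h before the DNA, and the HT-DNA+AOA+Asp group had in addition Asp at 20 mM. The series text abbreviates the agent given at 0.5 mM as a single letter, which is read here as AOA. HT-DNA, AOA and Asp are common short forms of herring testis DNA, aminooxyacetate (an aminotransferase inhibitor) and aspartate, although no label writes them out. The HT-DNA dose is written as 0.5 with a garbled unit, and reagent exposure of the mock cells is not given. AOA was given only with HT-DNA, and Asp only with both, so what AOA does by itself and what it does to the DNA response cannot be told apart. Replicates are not described as separate cultures, so the spread between them may be technical. In whole-culture RNA, fewer cells that make an RNA and less of that RNA in each cell cannot be told apart.

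As background, Neat1 is the architectural RNA of paraspeckles, nuclear bodies that its long isoform builds together with RNA-binding proteins. Malat1, made from the neighbouring gene, gathers in nuclear speckles, where splicing factors are stored. Gas5, Snhg1 and Snhg12 carry snoRNAs in their introns. The snoRNAs are cut out during splicing and guide the chemical modification of ribosomal RNA, while the spliced host RNA is a substrate of nonsense-mediated decay, which is coupled to translation. Host transcripts of this kind usually start with a run of pyrimidines, as the mRNAs of ribosomal proteins do.

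In GENCODE vM21 on GRCm38, Neat1 (ENSMUSG00000092274) lies at chr19:5824708-5845478 and Malat1 (ENSMUSG00000092341) at chr19:5795690-5802672, both on the minus strand. Gas5 (ENSMUSG00000053332) lies at chr1:161034422-161038539, Snhg1 (ENSMUSG00000108414) at chr19:8723475-8726443 and Snhg12 (ENSMUSG00000086290) at chr4:132308623-132311024, all on the plus strand. The sources used here do not name the build behind the deposited counts. The length deposited with each of the 5 equals the longest vM21 transcript, which is 20771 bases for Neat1, 6983 for Malat1, 2556 for Gas5, 2728 for Snhg1 and 1538 for Snhg12.

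The start regions of the 3 snoRNA hosts are shown because transcripts of this class usually start with a pyrimidine run. They are RefSeq windows on GRCm38.p6, plus strand, with 100 bases before and 50 bases from the annotated start. The Gas5 window is chr1:161035066-161035215, the Snhg1 window chr19:8723387-8723536 and the Snhg12 window chr4:132308578-132308727. Capitals mark the longest pyrimidine run within 5 bases of the start and, in Gas5, the 8 letters TGACGTCA.
Gas5: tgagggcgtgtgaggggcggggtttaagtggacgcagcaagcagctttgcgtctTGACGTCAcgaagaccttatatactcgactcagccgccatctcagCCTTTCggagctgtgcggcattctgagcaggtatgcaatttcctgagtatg
Snhg1: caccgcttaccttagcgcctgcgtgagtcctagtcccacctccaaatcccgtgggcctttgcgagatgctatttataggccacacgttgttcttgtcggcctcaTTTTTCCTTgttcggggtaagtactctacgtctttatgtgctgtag
Snhg12: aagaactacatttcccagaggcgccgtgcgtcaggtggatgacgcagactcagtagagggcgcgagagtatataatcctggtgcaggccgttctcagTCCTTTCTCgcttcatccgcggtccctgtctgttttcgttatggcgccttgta

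The pyrimidine run was 9 bases in Snhg1 and 9 in Snhg12, a length that 3.2% of 32851 RefSeq promoters reach. In Snhg1 the run began 4 bases after the first base annotated in RefSeq, so that annotated transcript does not start with it. In Snhg12 and this Gas5 window the run began just before that base. For all 3 hosts the GENCODE vM21 gene start given above lies elsewhere, so these positions hold for the RefSeq starts alone. The Gas5 run was 6 bases, reached by 12.1% of promoters, while a second annotated Gas5 start had a run of 3. In the Malat1 window the run was 2 bases. The cAMP response element TGACGTCA, searched on both strands, lay 46 bases before this Gas5 start, and 1.79% of all promoter windows hold it. TATAAA, searched the same way, matched 29 bases before the Snhg1 start on the strand opposite to the gene, where the printed strand reads tttata, and is in 13.6% of windows. No other host or Malat1 window held a match to either motif. The E-box CACGTG and the C/EBP-ATF letters TGATGNAA, found in 7.15% and 3.97% of windows, were in none of these windows. The same held for the core of the interferon-stimulated response element (3.44% of windows) and for the heat shock element (0.603%). The searched windows span 250 bases before to 50 after the start. No promoter of Neat1 was used here.

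One C/D box snoRNA of each host is shown as an example of the cargo, from GENCODE vM21 on GRCm38, plus strand, with the C box TGATGA and the D box CTGA in capitals. Snord47 of Gas5 lies at chr1:161038082-161038158, Gm25855 of Snhg1 at chr19:8723993-8724064 and Snord99 of Snhg12 at chr4:132310691-132310764.
Snord47: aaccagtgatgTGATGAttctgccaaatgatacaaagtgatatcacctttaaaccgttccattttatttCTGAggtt
Gm25855: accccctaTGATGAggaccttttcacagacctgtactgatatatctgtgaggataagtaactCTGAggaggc
Snord99: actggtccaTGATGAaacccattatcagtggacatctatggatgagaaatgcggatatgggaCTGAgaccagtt

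The counts did not follow the snoRNAs themselves. Each of these 3 had 0 counts in all 12 libraries. The 9 snoRNA entries inside Gas5 that the table lists held 17 counts over the 12 libraries, against 17863 for Gas5. The 8 entries inside Snhg1 held 28 counts against 25974 for the host, and the 4 inside Snhg12 held 11 against 9954. All of these entries overlap an exon of some host transcript in vM21. The values below therefore describe host RNAs. The sources used here do not give RNA selection or fragment size.

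Levels are in CPM, counts set relative to library size, with library sizes scaled by the trimmed mean of M-values (TMM). Neat1 stood at 1338, 1294 and 953 CPM in the mock libraries and at 466, 513 and 557 CPM under HT-DNA. With AOA it stood at 1320, 1192 and 1585 CPM, and with AOA and Asp at 1128, 1070 and 1165 CPM. The HT-DNA libraries were the 3 lowest of the 12, and the other 3 groups overlapped except that every library with Asp lay just below the lowest with AOA alone. The group means ± SD (n = 3) were 1195 ± 210.5 CPM in mock, 512 ± 45.7 under HT-DNA, 1366 ± 200.2 with AOA and 1121 ± 48.0 with AOA and Asp. From low to high the order was HT-DNA, HT-DNA+AOA+Asp, Mock and HT-DNA+AOA, and only the first step separated neighbours.

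Malat1 stood at 400.2, 402 and 405 CPM in mock and at 259.9, 253 and 278 CPM under HT-DNA. With AOA it stood at 497, 543 and 565 CPM, and with AOA and Asp at 368, 346 and 378 CPM. Its order was the same as that of Neat1, but here no neighbouring groups overlapped. The means were 402 ± 2.48 CPM in mock, 264 ± 12.9 under HT-DNA, 535 ± 34.7 with AOA and 364 ± 16.4 with AOA and Asp.

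Gas5 stood at 51.6, 50.6 and 46.2 CPM in mock and at 51.3, 58.4 and 59.3 CPM under HT-DNA. With AOA it stood at 92.2, 97.4 and 91.9 CPM, and with AOA and Asp at 59.7, 52.4 and 61.7 CPM. Only the AOA libraries stood apart, all 3 above the other 9. The means were 49.5 ± 2.85 CPM, 56.3 ± 4.34 CPM, 93.8 ± 3.05 CPM and 57.96 ± 4.91 CPM, in the order mock, HT-DNA, HT-DNA+AOA and HT-DNA+AOA+Asp.

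Snhg1 stood at 61.8, 60.8 and 58.1 CPM in mock and at 71.6, 74.2 and 72.7 CPM under HT-DNA. With AOA it stood at 157, 159 and 176 CPM, and with AOA and Asp at 77.8, 79.3 and 78.7 CPM. The 4 groups did not overlap at any step, although HT-DNA and HT-DNA+AOA+Asp lay close together. The means were 60.3 ± 1.89, 72.8 ± 1.31, 164 ± 10.4 and 78.6 ± 0.785 CPM in the order mock, HT-DNA, HT-DNA+AOA and HT-DNA+AOA+Asp.

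Snhg12 stood at 21.5, 23.3 and 22.9 CPM in mock and at 27.97, 27.7 and 27.5 CPM under HT-DNA. With AOA it stood at 60.2, 66.99 and 66.9 CPM, and with AOA and Asp at 29.3, 29.6 and 27.3 CPM. Mock was lowest and AOA highest, both apart from the rest, while HT-DNA and HT-DNA+AOA+Asp overlapped. The means were 22.6 ± 0.937, 27.7 ± 0.247, 64.7 ± 3.89 and 28.7 ± 1.25 CPM in the same group order.

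**Figure D1:**
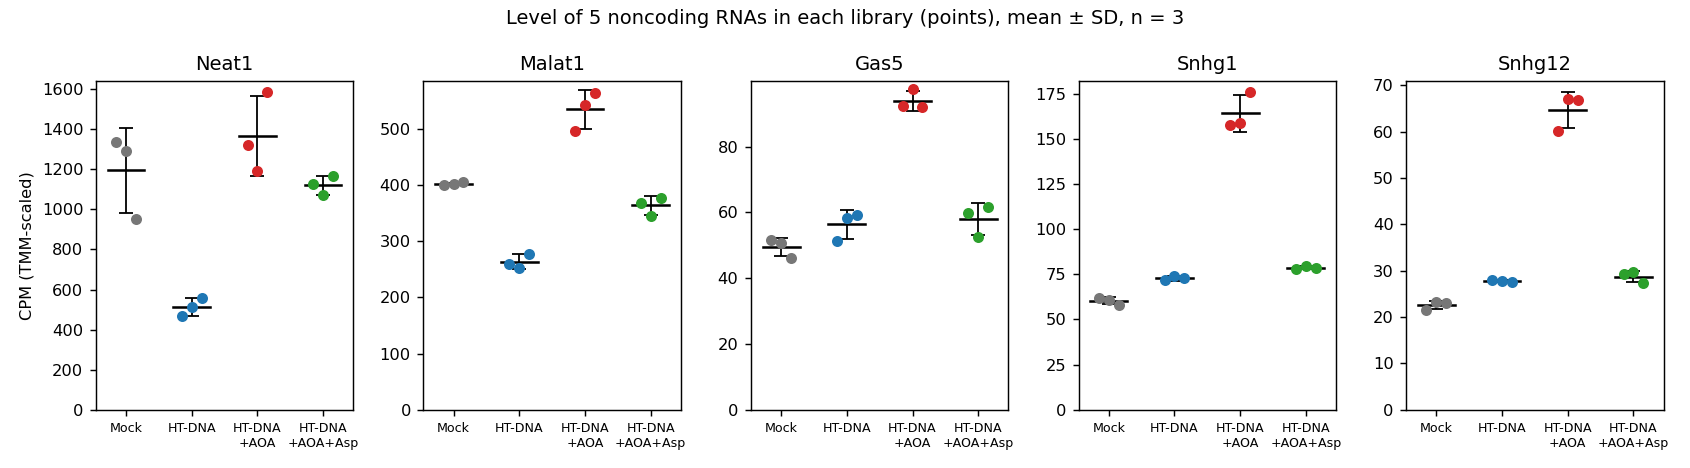
Level of each noncoding RNA in CPM (vertical axis, linear, from 0, a scale of its own in each panel) in the 3 libraries of each group (points), with the group mean (line) and SD (bar). Neat1 and Malat1 are lowest under HT-DNA, whereas Gas5, Snhg1 and Snhg12 are lowest in mock, and every RNA has its highest mean with AOA.

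Levels of different RNAs can be compared only per length, here as CPM per kb of the deposited length. In mock, Neat1 and Malat1 had group means of 57.5 and 57.6 CPM per kb, against 22.1 for Snhg1, 19.3 for Gas5 and 14.7 for Snhg12. With AOA the means were 65.8 for Neat1, 76.6 for Malat1, 60.2 for Snhg1, 42.1 for Snhg12 and 36.7 for Gas5. On this scale the nuclear pair was above the snoRNA hosts in mock, and Snhg1 came near Neat1 with AOA. The deposited length is that of the long Neat1 isoform. Reads of the short isoform fall on its 5′ part, so this scale depends on an isoform mix that the table does not give. For the hosts, the deposited length is that of the longest of 10 to 25 annotated transcripts. Where shorter spliced forms prevail, it understates host levels per kb, so the gap between the nuclear pair and the hosts is uncertain.

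Differences between groups are log2 fold changes with their standard error (SE). Against mock, HT-DNA libraries were lower in Neat1 at -1.22 (SE 0.15), which is 0.429 of the mock level, and in Malat1 at -0.61 (SE 0.050). Snhg1 was higher at 0.27 (SE 0.050) and Snhg12 at 0.295 (SE 0.063), with no overlap, while Gas5 was at 0.19 (SE 0.066) and its groups overlapped. So the nuclear pair and the hosts lay on opposite sides of mock. Of all genes tested, 49.5% had groups that did not overlap in this comparison, with 25.0% higher and 24.5% lower under HT-DNA.

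With AOA against HT-DNA, all 5 RNAs were higher and no groups overlapped. The log2 fold changes were 1.415 (SE 0.15) for Neat1, 1.02 (SE 0.050) for Malat1 and 0.74 (SE 0.064) for Gas5. They were 1.17 (SE 0.048) for Snhg1 and 1.22 (SE 0.059) for Snhg12, so that only Gas5 stayed under a doubling, at 1.67 times the HT-DNA level. Among all genes, 28.4% had all AOA libraries above all HT-DNA libraries, 29.2% had them all below, and 57.6% had groups apart in either direction.

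With Asp added to AOA, all 5 were lower than with AOA alone, again without overlap. Snhg12 and Snhg1 differed most, at -1.17 (SE 0.059) and -1.06 (SE 0.048). Gas5 was at -0.69 (SE 0.064), Malat1 at -0.56 (SE 0.049) and Neat1 at -0.285 (SE 0.15). For Neat1 the lowest AOA library was only 1.02 times the highest library with Asp, and without HT-DNA+AOA replicate 3 the value was -0.17. Of all genes, 30.3% had every library with Asp below every library with AOA alone, 31.6% had the reverse and 61.9% had groups apart in either direction.

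HT-DNA+AOA+Asp was also set beside HT-DNA. Neat1 was higher at 1.13 (SE 0.15), 2.19 times the HT-DNA level, and Malat1 at 0.47 (SE 0.050), in both cases without overlap. The hosts lay close to HT-DNA: Snhg1 was at 0.11 (SE 0.049) with groups just apart, Snhg12 at 0.05 (SE 0.062) and Gas5 at 0.04 (SE 0.066), the latter both with overlap. Without HT-DNA replicate 1 the Gas5 value was -0.02, and without HT-DNA+AOA+Asp replicate 2 it was 0.11. Groups were apart for 37.3% of all genes in this comparison, 19.6% higher and 17.8% lower. It shares its libraries with the comparisons above, so the 4 sets of values are not independent.

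**Figure D2:**
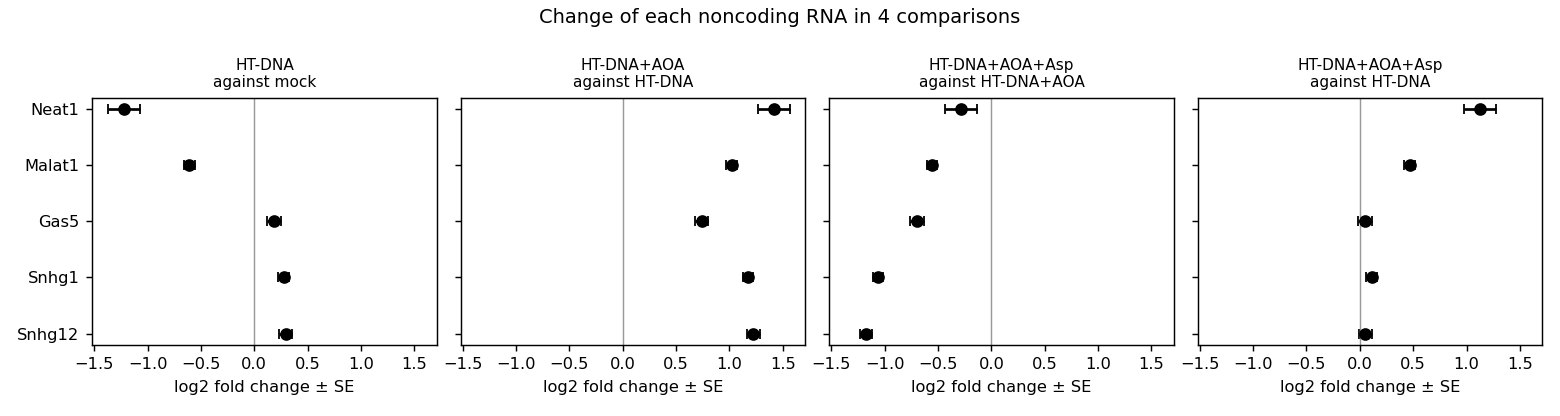
Log2 fold change (horizontal axis, points) with SE (bars) of each noncoding RNA in the 4 comparisons, from the fit over all 12 libraries. The nuclear pair lies left of 0 for HT-DNA against mock (Neat1 -1.22, Malat1 -0.61) and the 3 hosts right of it, all 5 lie right of 0 with AOA and left of 0 with Asp added, and only the nuclear pair stays clearly right of 0 in the last panel.

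Ratios of levels per length within a library do not depend on its scaling. The Neat1 to Malat1 ratio was 0.997 ± 0.18 in mock, 0.653 ± 0.043 under HT-DNA, 0.858 ± 0.11 with AOA and 1.04 ± 0.0058 with AOA and Asp. The Snhg1 to Snhg12 ratio moved little, from 1.43 ± 0.078 with AOA to 1.54 ± 0.067 with AOA and Asp, with 1.51 ± 0.10 in mock and 1.48 ± 0.036 under HT-DNA. The Snhg1 to Gas5 ratio was 1.14 ± 0.032 in mock and 1.64 ± 0.13 with AOA. The Snhg12 to Gas5 ratio was 0.761 ± 0.066 in mock and 1.14 ± 0.065 with AOA. The pair of Snhg1 and Snhg12 thus kept nearly the same proportion in all groups, and Gas5 changed less with AOA than either.

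Over the 12 libraries, the log2 CPM of Snhg1 and Snhg12 had a Pearson r of 0.994, Gas5 and Snhg1 0.974, and Neat1 and Malat1 0.888. Between Neat1 and the 3 hosts r was 0.375 to 0.412, and between Malat1 and the hosts 0.668 to 0.682. After removing the group means, r was 0.203 for Snhg1 and Snhg12, 0.14 for Gas5 and Snhg1 and 0.331 for Neat1 and Malat1. The high values of these pairs thus describe the 4 group means more than the libraries. Between Malat1 and the hosts r was then 0.255 to 0.412. Neat1 differed, at 0.778 with Snhg1, 0.503 with Gas5 and -0.202 with Snhg12, so r did not fall for every pair. The points of a group share their treatment.

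Among 9614 genes with a mean of 5 CPM or more and a gene name, the 3 with the highest r to each RNA over the 12 libraries were named. Most like Neat1 were AW549877 (0.977), Samd4 (0.962), which encodes an RNA-binding translational repressor, and Zc3hav1 (0.957), which encodes the antiviral zinc finger protein ZAP. Their range was much narrower than that of Neat1, as Zc3hav1 had means of 246.5, 193, 242 and 234 CPM in mock, HT-DNA, HT-DNA+AOA and HT-DNA+AOA+Asp. Most like Malat1 were Prnp (0.985), the prion protein gene, Snai2 (0.983), a transcriptional repressor of mesenchymal cells, and Gtpbp2 (0.982), a GTP-binding protein of ribosome rescue. Gtpbp2 had group means of 136, 87.1, 185 and 123 CPM in that order.

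Most like Gas5 were Rexo5 (0.995), an RNA exonuclease gene, Rars (0.988), the arginyl-tRNA synthetase, and Hnrnpm (0.984), a splicing regulator. Most like Snhg1 were Prmt6 (0.995), an arginine methyltransferase, Srpk1 (0.995), a kinase of SR splicing factors, and Snhg12 (0.993). Most like Snhg12 were Snhg1 (0.993), Pvr (0.993), a cell adhesion receptor, and Slc20a1 (0.993), a phosphate transporter. So the 2 hosts were among the nearest genes of each other. Slc20a1 had group means of 102, 120.6, 273 and 119.7 CPM and Snhg12 22.6, 27.7, 64.7 and 28.7 CPM, in the order above.

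The other noncoding snoRNA hosts were examined with edgeR's quasi-likelihood test, with p adjusted over all 14694 genes. This list and those below were chosen with earlier results known. Their genes were not matched for level to all genes tested, and calls depend on level. Shares called in a list and over all genes are therefore a description, without a set test. These hosts comprise 16 tested entries of 15 genes, since Snhg4 has 2 entries whose counts are uncertain. With AOA against HT-DNA, 9 of them rose and 2 fell, while 5 did not pass. Their median log2 fold change was 0.32, against 0.00 over all genes, of which 52.0% were called, 25.5% higher and 26.5% lower. Snhg5 rose from 24.9 ± 2.25 to 43.2 ± 4.78 CPM, a log2 fold change of 0.795 (SE 0.080, edgeR adjusted p = 3.08e-08). Zfas1, a host whose spliced RNA is abundant, rose from 60.2 ± 1.26 to 99.8 ± 9.12 CPM (0.73, SE 0.057, edgeR adjusted p = 6.84e-10). Snhg16 rose from 16.3 ± 1.08 to 26.6 ± 3.22 CPM (0.70, SE 0.086, edgeR adjusted p = 5.15e-07). These are the 3 largest changes in the list that meet the naming rule, and each is about as large as that of Gas5 and smaller than those of Snhg1 and Snhg12.

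With Asp added to AOA, 4 of these host entries rose and 8 fell, while 4 did not pass, and their median was -0.17. Of all genes 54.7% were called, 28.3% higher and 26.4% lower. Zfas1 fell by 0.65 (edgeR adjusted p = 3.22e-09) and Snhg16 by 0.60 (edgeR adjusted p = 3.86e-06) on the log2 scale. The Snhg4 entry ENSMUSG00000117694 went the other way, from 1.90 ± 0.656 to 5.25 ± 1.18 CPM (1.48, SE 0.24, edgeR adjusted p = 2.82e-05). The more abundant Snhg4 entry ENSMUSG00000117869 was not called, at 14.9 CPM with AOA and 13.8 CPM with Asp added (-0.10, edgeR adjusted p = 0.429). With AOA against HT-DNA, ENSMUSG00000117694 was called lower at -0.62 and ENSMUSG00000117869 higher at 0.42. So the direction of Snhg4 as a gene is uncertain. Every AOA library lay above all 9 others for 8 of the 16 entries, as for Malat1, Gas5, Snhg1 and Snhg12 but not Neat1. This held for 2842 of all genes tested, which is 19.3%.

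Under HT-DNA against mock, 2 of the 16 entries rose and 14 did not pass (median 0.16), while 41.0% of all genes were called, 21.2% higher and 19.8% lower. Snhg6 rose from 11.4 ± 1.01 to 14.5 ± 0.236 CPM (0.355, edgeR adjusted p = 0.00126). Snhg5 was called at 0.255 (edgeR adjusted p = 0.018). That call was lost without mock replicate 1 or 3, without HT-DNA replicate 2 or 3 and with library size alone as scaling, with adjusted p between 0.0505 and 0.11. For HT-DNA+AOA+Asp against HT-DNA, 6 entries rose and 10 did not pass, against 18.5% of all genes called, 10.4% higher and 8.15% lower. That count dropped to 3 with DESeq2 and to 1 or 2 without HT-DNA replicate 1 or 2 or without any single HT-DNA+AOA+Asp replicate.

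**Figure D3:**
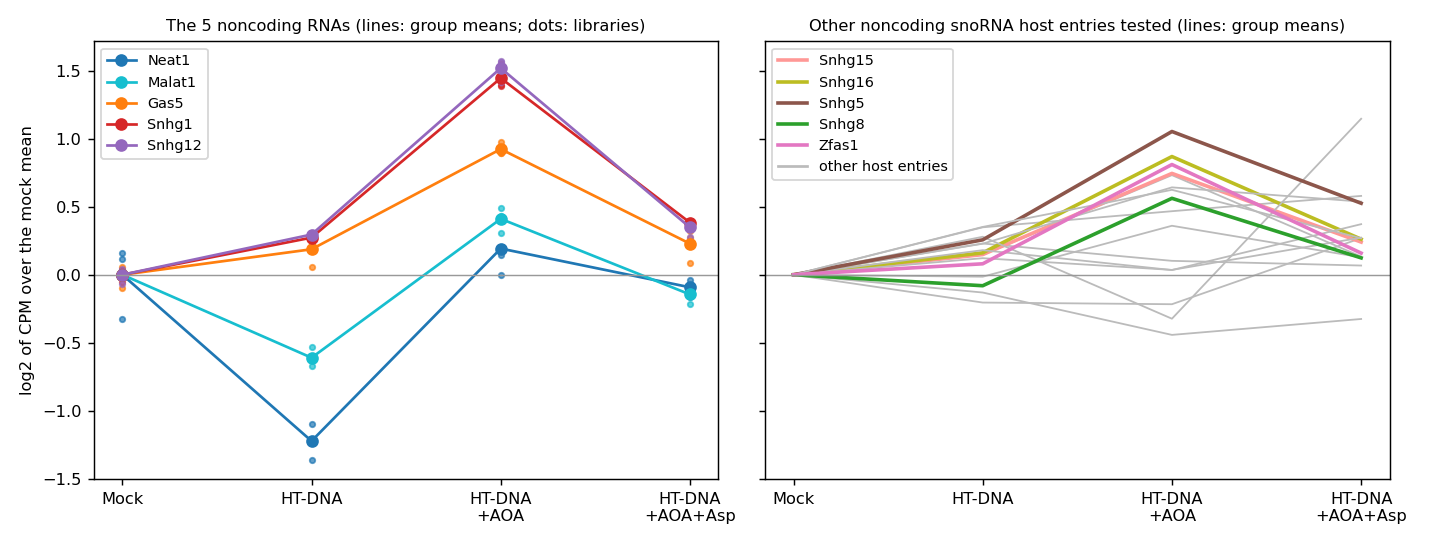
Group means of log2 CPM relative to the mock mean (vertical axis) across the 4 groups (horizontal axis), for the 5 noncoding RNAs with their libraries as dots (left) and for the 16 other noncoding snoRNA host entries (right, 5 of them in colour). Snhg1 and Snhg12 run together and peak with AOA, Neat1 and Malat1 dip under HT-DNA, and the coloured hosts peak with AOA at lower heights. The coloured hosts are the 5 with the largest rises with AOA against HT-DNA, so their peak was fixed by that choice. Of the 16 entries, 9 were called higher and 2 lower in that comparison.

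Many snoRNAs are carried by protein-coding genes instead, most of them of translation, and 40 such hosts were tested. In the AOA libraries against HT-DNA 23 rose, 5 fell and 12 did not pass (median 0.165), so 70% were called, against 52.0% of all genes (25.5% higher, 26.5% lower). Nop56, a core protein of C/D snoRNPs that itself carries snoRNAs, rose from 363 ± 13.7 to 661 ± 2.58 CPM (0.86, SE 0.040, edgeR adjusted p = 1.26e-13). Eif4a2, a translation initiation helicase, rose by 0.57 (edgeR adjusted p = 2.44e-05), whereas Hspa8, a chaperone, fell from 2650 ± 133 to 994 ± 108 CPM (-1.41, SE 0.060, edgeR adjusted p = 1.77e-13). With Asp added, 5 rose, 24 fell and 11 did not pass (median -0.20), so 72.5% were called, against 54.7% of all genes. Nop56 then fell by 0.96 (edgeR adjusted p = 2.3e-14) and Wdr43, a ribosome biogenesis factor, by 0.49 (edgeR adjusted p = 2.92e-09), while Hspa8 rose by 0.94 (edgeR adjusted p = 6.76e-11).

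Under HT-DNA against mock, 15 of the 40 protein-coding hosts rose and 25 did not pass (median 0.08), so 37.5% were called, against 41.0% of all genes. Hspa8 rose by 0.85, Wdr43 by 0.74 and Nop56 by 0.70, with edgeR adjusted p of 9.21e-10, 2.11e-11 and 1.89e-11. In the last comparison, HT-DNA+AOA+Asp against HT-DNA, 12.5% were called against 18.5% of all genes: 1 rose and 4 fell, among them Hspa8 at -0.48 and Wdr43 at -0.23 (edgeR adjusted p = 2.25e-05 and 0.000821).

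Of 19 proteins that bind snoRNAs or assemble snoRNPs, 17 rose under HT-DNA against mock and 2 did not pass (median 0.37), where 41.0% of all genes were called and 21.2% were higher. Nolc1, a chaperone of snoRNPs, rose from 192 ± 8.79 to 332 ± 10.9 CPM (0.79, SE 0.046, edgeR adjusted p = 1.89e-11). Dkc1, the pseudouridine synthase of H/ACA snoRNPs, rose by 0.78 and Nop58, the partner of Nop56, by 0.72 (edgeR adjusted p = 2.11e-11 and 7.36e-10). Against these, the host RNAs Gas5, Snhg1 and Snhg12 were at 0.19, 0.27 and 0.295. The list was called at 89.5% there, and at 57.9%, 73.7% and 36.8% with AOA, with Asp added and with both against HT-DNA, where all genes were called at 52.0%, 54.7% and 18.5%. AOA against HT-DNA gave fewer calls: 7 rose, 4 fell and 8 did not pass (median 0.06). Naf1, an H/ACA assembly factor, rose by 0.67 and Rpap3, of the R2TP chaperone complex, fell by 0.33 (edgeR adjusted p = 4.16e-05 and 2.35e-05). With Asp added, 2 rose, 12 fell and 5 did not pass (median -0.155), and Naf1 fell by 1.10 (edgeR adjusted p = 3.29e-07). Against HT-DNA, the libraries with AOA and Asp had 1 higher and 6 lower, the former being Tcof1, a nucleolar scaffold protein, at 0.20 (edgeR adjusted p = 0.0019).

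Paraspeckle proteins, the partners of Neat1, were tested as 37 genes. In the order HT-DNA, AOA, Asp added and AOA with Asp against HT-DNA, 40.5%, 86.5%, 81.1% and 32.4% of them were called, against 41.0%, 52.0%, 54.7% and 18.5% of all genes. Under HT-DNA against mock, where Neat1 was lowest, 14 rose, 1 fell and 22 did not pass (median 0.10). Fam98a rose by 0.515, Rbmxl1 by 0.475 and Hnrnpf, a splicing regulator, by 0.47, with edgeR adjusted p of 8.08e-08, 3.79e-08 and 3.65e-09. When AOA was added, 23 rose, 9 fell and 5 did not pass (median 0.18). Pspc1, which with Nono and Sfpq forms the protein core of paraspeckles, rose from 69.2 ± 2.99 to 127 ± 4.63 CPM (0.88, SE 0.054, edgeR adjusted p = 1.43e-11). Nono and Sfpq rose less, by 0.15 and 0.39 (edgeR adjusted p = 0.00436 and 0.000128). Ewsr1, an RNA-binding protein, rose by 0.90 (edgeR adjusted p = 1.55e-13) and Cirbp, the cold-inducible RNA-binding protein, by 0.99 (edgeR adjusted p = 6.44e-09). With Asp added, 10 rose, 20 fell and 7 did not pass (median -0.13). Pspc1 fell by 1.08, Rbm12 by 1.08 and Cirbp by 1.02, with edgeR adjusted p of 6.46e-13, 2.05e-09 and 4.25e-09, whereas the Neat1 value was -0.285. Sfpq fell by 0.66 (edgeR adjusted p = 3.73e-07), and Nono was not called, at -0.06 (edgeR adjusted p = 0.206). Between HT-DNA+AOA+Asp and HT-DNA, where Neat1 was at 1.13, 5 rose and 7 fell. Rbm12 and Rbmxl1 then fell by 0.65 and 0.33 (edgeR adjusted p = 5.7e-05 and 5.39e-05).

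Of 25 proteins of nuclear speckles and SR splicing factors, the setting of Malat1, 76%, 76%, 72% and 40% were called in the same 4 comparisons. The shares over all genes were 41.0%, 52.0%, 54.7% and 18.5%. In detail, 15 of the 25 rose and 4 fell under HT-DNA against mock (median 0.15). Srsf2, an SR protein, rose by 0.48, while the SR kinases Srpk2 and Clk1 fell by 0.48 and 0.45 (edgeR adjusted p = 4.2e-06, 4.57e-05 and 3.51e-06). After AOA 12 rose and 7 fell (median 0.12), and the 3 largest changes were falls. Acin1 fell from 175 ± 4.86 to 89.7 ± 4.02 CPM (-0.97, SE 0.044, edgeR adjusted p = 1.19e-13), Srsf3 by 0.775 and U2af2, which recognises the polypyrimidine tract at the 3′ splice site, by 0.75 (edgeR adjusted p = 3.77e-12 and 3.63e-11). With Asp added, 9 rose and 9 fell (median 0.04). Acin1, Srsf3 and Srpk2 rose by 1.095, 0.65 and 0.62 (edgeR adjusted p = 1.58e-14, 6.07e-11 and 1.83e-06). HT-DNA+AOA+Asp against HT-DNA gave 6 that rose and 4 that fell, Srpk2 among the former at 0.345 (edgeR adjusted p = 0.00336).

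Nuclear RNA decay and polyadenylation factors, some of which process or degrade nuclear noncoding RNAs, numbered 18. Their called shares in the 4 comparisons were 44.4%, 61.1%, 55.6% and 11.1%, against 41.0%, 52.0%, 54.7% and 18.5% of all genes. Under HT-DNA against mock 8 rose and 10 did not pass (median 0.14). Mettl16, a methyltransferase that binds the Malat1 triple helix in human cells, rose by 0.57, Exosc10, an exosome nuclease, by 0.49 and Mphosph6 by 0.48 (edgeR adjusted p = 6.65e-08, 5.52e-09 and 0.000361). AOA brought 4 rises and 7 falls, and 7 did not pass (median -0.05). Mtrex, the helicase of the nuclear exosome, fell from 88.9 ± 4.71 to 43.5 ± 2.89 CPM (-1.03, SE 0.060, edgeR adjusted p = 5.67e-12), and Mettl16 and C1d fell by 0.545 and 0.44 (edgeR adjusted p = 6.02e-08 and 0.000292). With Asp added, 7 rose, 3 fell and 8 did not pass (median 0.05). Mtrex rose by 0.99 and Exosc3, an exosome subunit, fell by 0.43 (edgeR adjusted p = 1.16e-11 and 2e-06). Zfc3h1, which links the exosome to polyadenylated nuclear RNA, was at 0.51 (edgeR adjusted p = 0.026). That call was lost without HT-DNA+AOA replicate 1 or 2, without HT-DNA+AOA+Asp replicate 1 or 3, with no filter and with a replicate block (adjusted p = 0.0514 to 0.0905). For HT-DNA+AOA+Asp against HT-DNA none rose and 2 fell, or 1 and 4 when only these 2 groups were fitted, with Mettl16 at -0.23 (edgeR adjusted p = 0.00618) and Exosc10 among those that fell, whose call is listed with the less stable ones below.

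The nonsense-mediated decay list, of the pathway that degrades spliced host RNA, held 19 genes. In the order HT-DNA, AOA, Asp added and AOA with Asp against HT-DNA, 52.6%, 63.2%, 73.7% and 21.1% of them were called, against 41.0%, 52.0%, 54.7% and 18.5% of all genes. Under HT-DNA against mock 8 rose and 2 fell (median 0.08), with the exon junction helicase Eif4a3 at 0.54, the release factor partner Gspt1 at 0.52 and the release factor Etf1 at 0.46. Their edgeR adjusted p was 1.03e-08, 2.45e-09 and 6.29e-09. AOA against HT-DNA had 6 that rose and 6 that fell (median 0.12). Upf3b, which links the exon junction complex to Upf proteins, fell from 32.3 ± 2.39 to 18.3 ± 0.410 CPM (-0.82, SE 0.084, edgeR adjusted p = 5.3e-08), Smg9 fell by 0.615 and the junction component Casc3 rose by 0.62 (edgeR adjusted p = 2.12e-07 and 2.3e-09). With Asp added 8 rose and 6 fell (median 0.045), and Upf3b, Smg9 and Smg5 rose by 0.99, 0.78 and 0.61 (edgeR adjusted p = 2.57e-09, 4.96e-09 and 7.51e-10). Against HT-DNA, with AOA and Asp, 3 rose and 1, Etf1, fell, by 0.18 (edgeR adjusted p = 0.00254).

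Other long noncoding RNAs give a view of the class: 23 were tested. Called shares were 26.1%, 47.8%, 56.5% and 21.7% in the 4 comparisons, against 41.0%, 52.0%, 54.7% and 18.5% of all genes. Under HT-DNA against mock 3 rose and 3 fell (median -0.02), with Firre, a nuclear RNA that organises chromatin, at -0.75, Lockd at -0.39 and Morrbid, a regulator of Bcl2l11, at 0.29 (edgeR adjusted p = 3.82e-07, 0.00221 and 0.00534). In the AOA libraries 6 rose and 5 fell (median 0.04). Kcnq1ot1, an imprinted silencing RNA, rose from 8.78 ± 1.64 to 19.7 ± 1.75 CPM (1.17, SE 0.14, edgeR adjusted p = 2.09e-06). Pvt1, the neighbour of Myc, rose from 33.3 ± 3.77 to 63.9 ± 2.64 CPM (0.945, SE 0.070, edgeR adjusted p = 2.88e-10) and Jpx, an activator of Xist, by 0.825 (edgeR adjusted p = 0.00126). With Asp added 7 rose and 6 fell (median -0.05). Pvt1 fell by 0.88 and Norad, which binds Pumilio proteins, rose by 0.70 (edgeR adjusted p = 7.75e-10 and 1.59e-10). Jpx was at -0.57 (edgeR adjusted p = 0.0165), a call lost without HT-DNA+AOA replicate 2 (0.0632) or HT-DNA+AOA+Asp replicate 1 (0.118). For AOA with Asp against HT-DNA, 3 rose and 2 fell, with Kcnq1ot1 at 0.75 and Firre at 0.39 (edgeR adjusted p = 0.00169 and 0.00304).

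**Figure D4:**
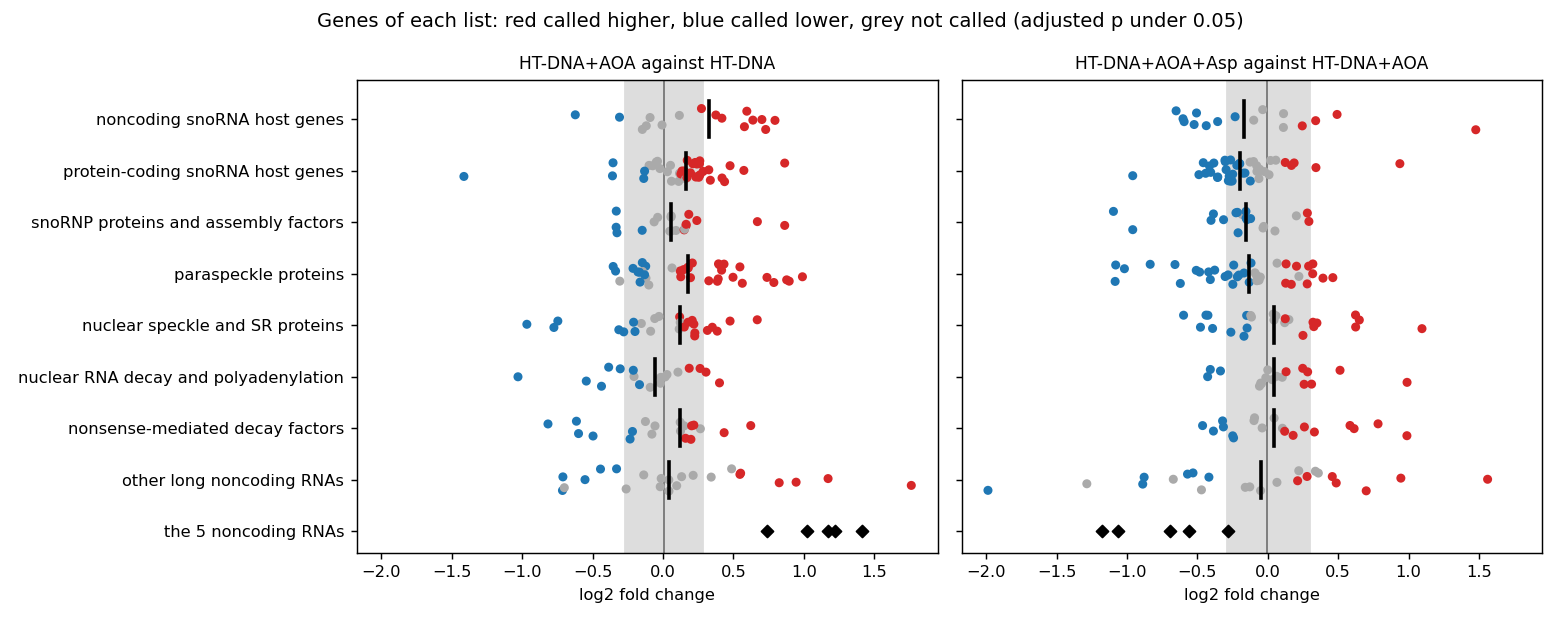
Log2 fold change (horizontal axis) of every tested gene of each list (points) with AOA against HT-DNA (left) and with Asp added to AOA (right), red where called higher, blue where called lower and grey where not called. Black bars are list medians, the grey band is the interquartile range of all genes, and black diamonds are the 5 noncoding RNAs, all right of 0 on the left (0.74 to 1.415) and all left of 0 on the right (-1.17 to -0.285).

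In the comparison of HT-DNA+AOA+Asp with HT-DNA, the rule also named Snhg5, Snhg14, Snhg4 (ENSMUSG00000117694), Chd8, Taf15, Srsf5, Srrm2, Naf1, Nufip1, Pnrc2, Upf3a, Exosc10 and Dleu2. Each of these calls, with edgeR adjusted p from 0.00561 to 0.0475, was lost in at least 1 fit that left out a library (adjusted p = 0.0522 to 0.189). Each of the HT-DNA and HT-DNA+AOA+Asp libraries ended at least 1 of them when left out. List counts of this comparison also shrank by more than 1.5 times in such fits: to 6 for paraspeckle proteins without HT-DNA replicate 1 or 2 or HT-DNA+AOA+Asp replicate 1 or 3, to 4 for snoRNP proteins without HT-DNA replicate 1 or 2, and to 3 for protein-coding hosts without HT-DNA replicate 2. Speckle proteins numbered 3 to 6 without any 1 of these libraries other than HT-DNA replicate 3. Nonsense-mediated decay factors numbered 1 or 2 without HT-DNA replicate 1 or 2 or HT-DNA+AOA+Asp replicate 1 or 3. Nuclear decay factors numbered 1 without HT-DNA replicate 2 or HT-DNA+AOA+Asp replicate 1 or 3, and other long noncoding RNAs 3 without HT-DNA replicate 2 or HT-DNA+AOA+Asp replicate 3. Without mock replicate 2, 6 nonsense-mediated decay factors were called under HT-DNA. Nop56 is counted in 2 lists, and so are Srsf10 and Rbm7.

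Some genes next to the 5 loci were also examined. Frmd8, 4224 bases from Neat1 on the same strand, fell under HT-DNA from 107 to 76.8 CPM (-0.48, SE 0.066, edgeR adjusted p = 7.75e-06). With AOA it fell again, to 39.5 CPM (-0.96, SE 0.071, edgeR adjusted p = 1.02e-09), where Neat1 was higher at 1.415, and with Asp added it rose to 80.1 CPM (1.02, SE 0.071, edgeR adjusted p = 3.82e-10). Gm37376 overlaps an exon of Malat1 on the other strand and held 9 counts over the 12 libraries.

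Slc3a2, the heavy chain of amino acid transporters, starts 106 bases from Snhg1 on the opposite strand. With AOA it rose from 239.7 to 334 CPM (0.48, SE 0.048, edgeR adjusted p = 3.57e-08) and with Asp added it fell by 0.31 (edgeR adjusted p = 1.16e-05), directions that Snhg1 also had, at 1.17 and -1.06. Trnau1ap, 739 bases from Snhg12 and convergent with it, rose by 0.415 under HT-DNA (edgeR adjusted p = 2.89e-05) and was at 0.08 with AOA (edgeR adjusted p = 0.291), where Snhg12 was at 1.22. Zbtb37 overlaps the Gas5 locus on the other strand without sharing an exon, and fell by 0.48 under HT-DNA (edgeR adjusted p = 0.00153) but was at 0.06 with AOA (edgeR adjusted p = 0.711). Whether the counting used strand is not given here, so reads of overlapping genes on opposite strands may not have been told apart.

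Library totals were 19944487 to 27309176 counts. HT-DNA against mock gave 3112 higher and 2911 lower genes, or 2418 and 3737 with library size alone as scaling. With AOA 3750 were higher and 3896 lower, with Asp added 4165 and 3875 (3114 and 4616, and 4844 and 3208, with library size alone), and with AOA and Asp against HT-DNA 1522 and 1197. Mitochondrial transcripts took 1.77% to 2.22% of counts. The summed CPM of 8 fibroblast markers was 4900 to 5030 in the AOA libraries and 5320 to 6000 in the others. Most of it was Vim (2830 to 3780 CPM over the 12 libraries) and S100a4 (1440 to 1980 CPM), with Thy1 at 0 to 0.192 CPM. Of 4 leukocyte markers, Adgre1 was at 0 in all 12 libraries and Ptprc in 9. The sum, nearly all of it Cd68, was 318 to 359 CPM with AOA, 286 to 309 in mock and 244 to 255 in the other groups. Epithelial markers summed to at most 2.43 CPM and endothelial markers to at most 6.81. The part of these shifts in the values of the noncoding RNAs was not tested.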

How the data were processed

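RNA of 12 L929 samples was sequenced, and the authors deposited estimated counts per gene, per the file headers and values, with 14.4% to 16.6% of a library's values not whole. Aligner, counting program, strand setting and build were not given in the sources used here. Estimated counts were rounded and filtered with filterByExpr (minimum count 10, minimum total 15), leaving 14694 genes. With edgeR 4.0.16 in R 4.3.3 (limma 3.58.1), libraries were TMM-scaled and fitted together with a term per group (8 residual degrees of freedom, common biological coefficient of variation 0.0534). Genes were called by the robust quasi-likelihood test at a Benjamini-Hochberg adjusted p under 0.05, over all genes tested. SE were taken from the log2 fold change and its F statistic. DESeq2 1.42.0 was an alternative, and the fit was tested on simulated data. The 5 RNAs and all gene lists were chosen with earlier results of these data known. From each list and comparison, up to 3 called genes with the largest change were named, where the higher group averaged at least 5 CPM and the groups did not overlap. Outside that rule, Nono, Sfpq and some values of the Snhg4 entries are given for comparison. Correlations used log2 CPM (prior count 2). Promoters are from RefSeq (GRCm38.p6), and coordinates and snoRNAs from GENCODE vM21 (GRCm38), which holds 52133 of the 55414 Ensembl identifiers. Some neighbouring genes are not reported here.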

Additional observations from a re-analysis of the deposited data

How the results depend on the processing

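Of 140 values of the 5 noncoding RNAs under the alternatives that kept all libraries, 138 moved by less than the replicate spread. Alternatives that changed only the filter, the block or the groups fitted used the same counts. They can hardly move a difference of group means, so their part of the 138 was nearly fixed in advance. The exceptions came with library size alone as scaling, where HT-DNA against mock was 0.21 for Snhg1 and 0.23 for Snhg12. All 120 values without a single library stayed within that spread. This was nearly fixed in advance, because leaving out a single library of a group can hardly move the group mean beyond it. Without single replicates, Neat1 with Asp added to AOA ranged from -0.38 to -0.17. The number of genes called for HT-DNA+AOA+Asp against HT-DNA ranged from 1691 to 2891 when single replicates were left out, against 2719, and was smaller by over 1.5 times without HT-DNA replicate 1 or 2 or HT-DNA+AOA+Asp replicate 2 or 3. Replicate numbers did not pair the samples (correlations of deviations from group means -0.151 to 0.046), and with a replicate block 5729, 7377, 7782 and 2248 genes were called in the 4 comparisons. The block ended the calls of Zfc3h1 with Asp added, and of Dleu2 and Srrm2 for HT-DNA+AOA+Asp against HT-DNA, where the called speckle proteins numbered 6. Of 868 values of other list genes and neighbouring genes with all libraries kept, 855 held their call and 12 lost it. Of 744 without a single library, 679 held it and 64 lost it. No value reversed as a call. Where calls were lost, the cause was not tested. The 144 entries named Snord or Snora held 0.000617% to 0.000907% of a library's counts and 1 was tested, so changes of snoRNAs were not measurable here; the cause of the low counts was not tested.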
